A study of Mus musculus with 12 samples.

Results

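The genes described here are 45 members of the TGF-beta and BMP pathway, out of 21729 genes in the count table. They form a list of named ligands, receptors, antagonists, Smads and targets, drawn up with no threshold on their values, and were read in 12 single cultured cardiac progenitor cells (CPCs). The cells, CPC1 to CPC12, came from hearts of female FVB mice aged 12 weeks. Hearts of a pair of animals were pooled, the non-myocyte fraction was depleted of blood lineages, and c-Kit+ cells were taken with magnetic CD117 beads. Cells were then grown on gelatin to passage 5, in medium with 10% serum, basic FGF and LIF at 10 ng/ml each and EGF at 20 ng/ml, and were picked by hand for full-length cDNA libraries. The study asked what culture does to the transcriptome of such cells, but all 12 cells were cultured and form 1 group, and no label ties a cell to a culture or mouse. They were treated as 1 sample, with no test, and each spread below describes these 12 cells.

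TGF-beta, activin and BMP ligands are secreted dimers that bring type II receptor kinases together with type I receptors. The type I receptor then phosphorylates a receptor-regulated Smad, classically Smad2 or Smad3 for TGF-beta and activin and Smad1, Smad5 or Smad9 for BMP, which enters the nucleus with Smad4. In the heart this signalling is known from valve and septum formation, from the switch of fibroblasts to matrix-producing cells, and from endothelial cells.

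Totals ran from 3453708 to 5690184 counts per cell, so a gene with no count could lie at up to 0.527 to 0.869 CPM, the level of 3 counts, which is a one-sided limit. CPM is a count scaled to a total of 1000000 per cell. Intervals and limits cover counting error only, since the reads carry no molecular identifiers. Kit, the gene of the sorted receptor, had no count in 11 cells and 3.94 CPM in CPC10. CPC10 stood apart, with 9810 CPM summed over 10 endothelial marker genes against at most 58.5 CPM in the others, although Cldn5 and Vwf were at 0. Its collagen sum over Col1a1, Col1a2 and Col3a1 was 12.2 CPM, and the next lowest was 266 CPM in CPC3. Its sum over 10 fibroblast markers was 3625 CPM, above those of CPC3, CPC5 and CPC9, and 3406 CPM of it was Fbln2. The median Pearson r of log2(CPM + 1) to the other cells, over 12366 genes, was 0.745 for CPC10 and 0.807 to 0.863 for the rest. CPC3 is set beside CPC10 because it followed in collagen and had the highest sum of blood cell markers, 160 CPM. Summed markers of other types ran from 2174 to 16326 CPM for fibroblasts and from 13.8 to 3737 CPM for mural cells. They ran from 2.99 to 160 CPM for blood cells and from 0 to 86.6 CPM for cardiomyocytes. Of the highest mural sum, in CPC11, 3668 CPM was Acta2. Among the other mural markers, Pdgfrb was counted in 12 cells at up to 87.5 CPM and Tagln reached 11.2 CPM in CPC11. Each of the rest was at 6.20 CPM or less. Of 10 cardiomyocyte markers 8 were at 0 in each cell. Genes with a count numbered 11216 to 11950 in CPC1 to CPC6 and CPC9 and 10022 to 10181 in the other 5 cells. The labels call the mice female, yet the sum of 4 Y-linked genes ran from 9.76 to 267 CPM.

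Most of the pathway was transcribed in each cell. In all, 27 of the 45 genes had a count in each of the 12 cells, against 35.3% of all genes in the table. Bmp7 was the only member with no count in any cell, where 33.4% of all genes had none, and 17 members were counted in 1 to 11 cells, against 31.2% of all genes. A mean of 10 CPM or more was reached by 31 members, against 39.1% of all genes. Over the 540 values of a member in a cell, 439 had a count (81.3%), beside 50.5% over all genes. The median of the mean level was 36.7 CPM for the members and 17.0 CPM for the 14462 genes with any count. These comparisons with all genes used plain counts and CPM and were not matched for exon length. Members with a count numbered 31 in CPC10, 34 to 37 in CPC7, CPC8, CPC11 and CPC12, and 37 to 41 in the cells with more genes, where CPC6 had the most. The part of the number of genes per cell in this was not tested.

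**Figure D1:**
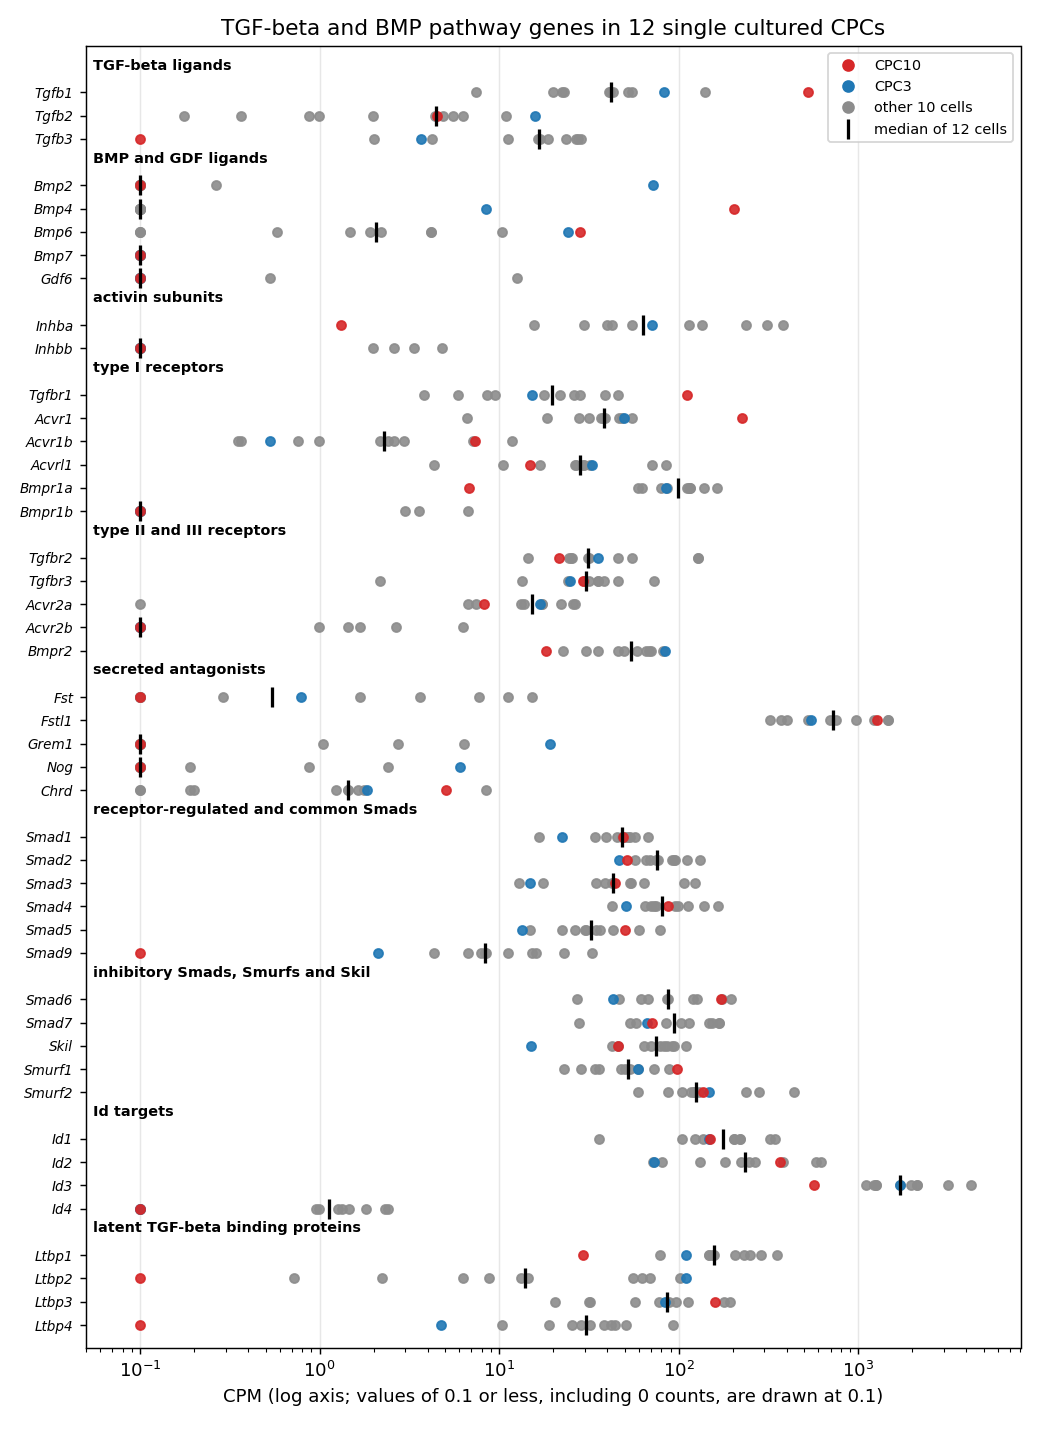
Each row is 1 gene and each point 1 of 12 cells, on a log axis of CPM, with values of 0.1 or less drawn at 0.1; the black tick is the median. Id3 lies farthest right, at a median of 1705 CPM, and CPC10 (red) lies outside the other cells for Tgfb1, Bmp4, Acvr1 and Bmpr1a.

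Among the ligands, Tgfb1 and Inhba were abundant in most cells, while Bmp2, Bmp4 and Gdf6 were counted in 2 cells each. Tgfb1 (chr7:25687002-25705077, mm10), the TGF-beta form most often studied in fibrosis, ran from 7.44 CPM in CPC6 through a median of 42.2 to 525 CPM in CPC10. CPC10 stood at 3.75 times the next cell, CPC9 with 140 CPM. Without CPC10 the mean fell from 87.7 to 48.0 CPM. Tgfb3 (chr12:86056745-86079041) ran from 0 in CPC10 through a median of 16.6 to 28.5 CPM in CPC9. Its cells spread over this whole range with no single high cell. Tgfb2 was counted in 12 cells but reached only 15.8 CPM, in CPC3. Per kilobase of exon, Tgfb1 held a median of 56.3% of the 3 TGF-beta ligands, from 32.0% in CPC6 to 99.3% in CPC10, and it led in 9 cells. Tgfb2 led in CPC6, and Tgfb3 led in CPC7 and CPC12. Without CPC10 the median share of Tgfb1 was 51.0%. The share depended on the measure. Over 12 cells the median was 71.3% with the longest transcript as length and 64.4% in plain CPM. Summed over the cells, per kilobase, it was 76.9%. In CPC7 the lead of Tgfb3 held only per kilobase, as Tgfb1 had 22.4 CPM and Tgfb3 18.8 CPM.

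BMP transcripts were concentrated in few cells. Bmp4 (chr14:46383520-46390669) had 1085 counts in CPC10 (exact 95% Poisson interval 1021 to 1152), or 204 CPM, and 32 counts in CPC3 (21.9 to 45.2), or 8.44 CPM. The other 10 cells had no Bmp4 count. Bmp2 (chr2:133552159-133562885) had 272 counts in CPC3 (241 to 306), or 71.7 CPM, and 1 count in CPC6. Bmp2 and Bmp4 are closely related ligands, and each was thus strong in 1 cell, a different one for each gene. Bmp6 (chr13:38345107-38500302) was counted in 9 cells, with 28.2 CPM in CPC10, 24.3 CPM in CPC3 and 10.4 CPM in CPC6. A stretch of 5.74% of the Bmp6 exon length overlaps Txndc5 on the opposite strand, which was at a mean of 465 CPM, and reads of both cannot be told apart if strand was not counted. Gdf6, a ligand of joint and skeletal development, had 66 counts in CPC7 (51.0 to 84.0), or 12.6 CPM, and 2 counts in CPC6. Bmp7 (chr2:172868012-172940321) was not detected at this depth. Summed over the 5 genes, BMP and GDF ligands ran from 0 CPM in CPC8 and CPC12 through a median of 3.17 to 232 CPM in CPC10. Outside CPC3 and CPC10, 1 Bmp2 count aside, this sum held Bmp6 and Gdf6 alone.

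Inhba, which encodes the subunit of activin A, was 1 of 3 ligands among the members that were counted in every cell. It (chr13:16011851-16031621) ran from 1.31 CPM in CPC10, or 7 counts, through a median of 63.0 to 379 CPM in CPC11. CPC2, CPC7 and CPC11 lay above 200 CPM, and CPC10 was 0.0185 times the median of the other cells. Inhbb, the activin B subunit, was counted in CPC2, CPC4, CPC5 and CPC6, at up to 4.78 CPM. These 4 cells belong to those with more genes counted.

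**Figure D2:**
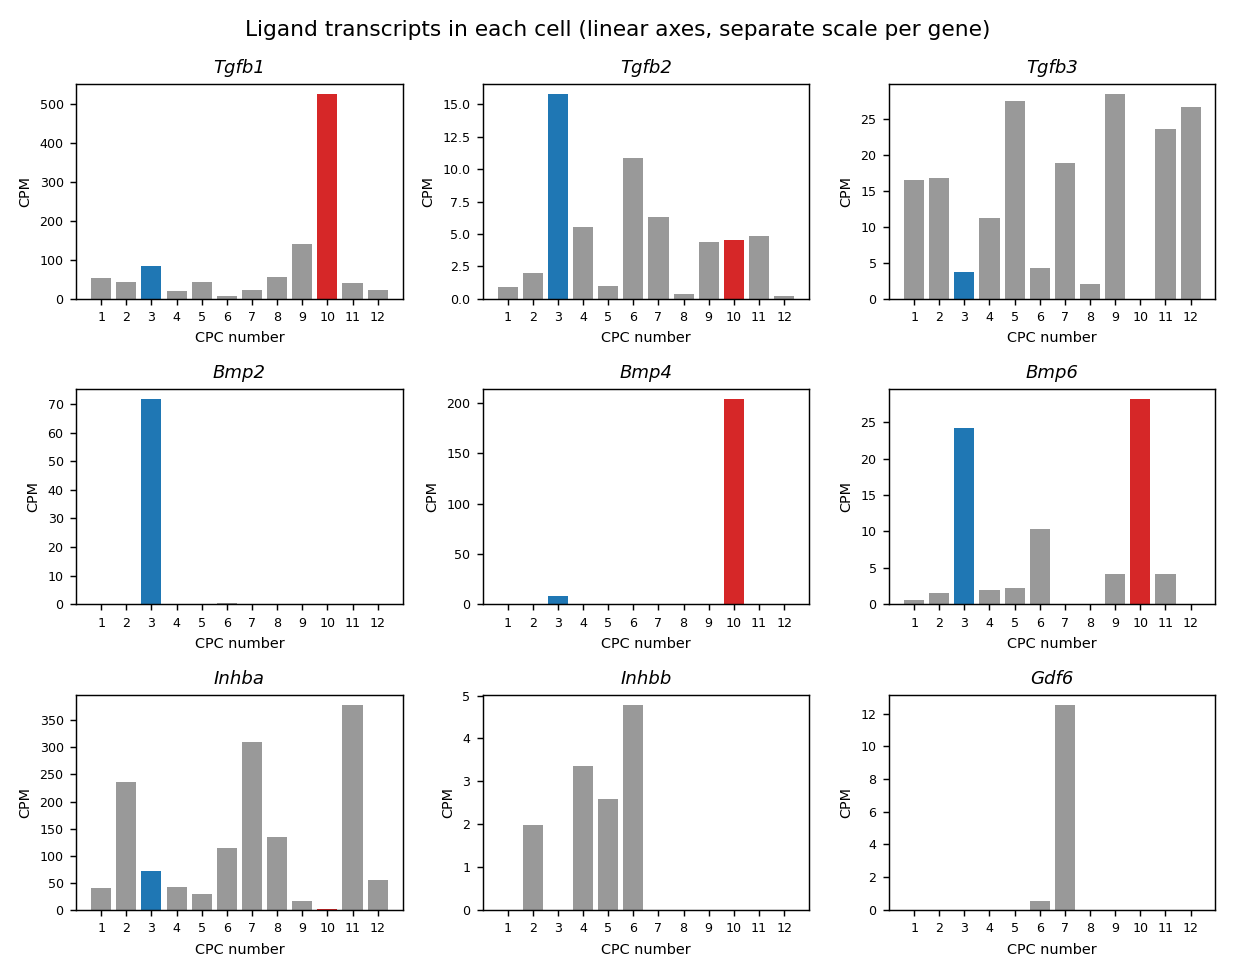
Bars give the CPM of each ligand in CPC1 to CPC12 on linear axes that differ between genes, with CPC3 in blue and CPC10 in red. Bmp4 stands at 204 CPM in CPC10 and Bmp2 at 71.7 CPM in CPC3, while Inhba and Tgfb3 are spread over many cells.

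Each cell held transcripts of type I and type II receptors, with Bmpr1a leading the type I set in 10 of the 12. Bmpr1a (chr14:34410734-34503341), a main BMP type I receptor, ran from 6.76 CPM in CPC10, or 36 counts, through a median of 98.8 to 163 CPM in CPC7. The other 11 cells held 59.3 CPM or more, so CPC10 lay far below the rest, at 0.0606 times their median. Acvr1 (chr2:58388644-58567157), which also serves BMP ligands, ran from 6.66 CPM in CPC7 through a median of 38.5 to 226 CPM in CPC10. Here CPC10 was 4.12 times the next cell, and without it the highest was 54.9 CPM. Per kilobase of exon, Bmpr1a held a median of 44.3% of the 6 type I receptors and led in 10 cells, with 1.52% in CPC10 and 72.1% in CPC7. Acvr1 led in CPC10, at 66.9%, and Acvrl1 led in CPC5.

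Tgfbr1, the type I receptor of TGF-beta, reached 111 CPM in CPC10, and the next cell held 45.7 CPM. Acvrl1, a type I receptor known from endothelial cells, lay between 4.36 and 85.0 CPM. CPC10, the cell with endothelial transcripts, held 14.8 CPM of Acvrl1, less than the median of 28.2 CPM. Acvr1b, an activin receptor, was counted in 12 cells at up to 11.7 CPM. Bmpr1b was counted in CPC2, CPC4 and CPC5 only, at up to 6.67 CPM.

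Tgfbr2 (chr9:116084293-116175360), the TGF-beta type II receptor, ran from 14.5 CPM in CPC8 through a median of 31.4 to 128 CPM in CPC12. CPC11 was at 127 CPM, so these 2 cells stood above the others, the next of which had 54.9 CPM. Tgfbr3 (chr5:107106570-107289629), the co-receptor betaglycan, ran from 2.17 CPM in CPC11 through a median of 30.6 to 72.9 CPM in CPC8. CPC11 thus had high Tgfbr2 and the lowest Tgfbr3. Per kilobase Tgfbr3 led this set in 7 cells and Tgfbr2 in 3. Bmpr2, the BMP type II receptor, was counted in each cell, from 18.2 CPM in CPC10 to 83.3 CPM in CPC3. Acvr2a, an activin type II receptor, had 0 counts in CPC8 and up to 26.4 CPM elsewhere. Orc4, at a mean of 139 CPM, overlaps 7.84% of its exon length on the opposite strand. Its relative Acvr2b was counted in 5 cells, with 30 counts or 6.29 CPM in CPC9.

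Of the 5 secreted antagonists among the members, Fstl1 had by far the highest level. Fstl1 (chr16:37776873-37836514), a follistatin-like glycoprotein made by cardiac stroma, was at 834 ± 428 CPM (SD, 12 cells). It ran from 322 CPM in CPC2 through a median of 724 to 1461 CPM in CPC11. CPC6, CPC10, CPC11 and CPC12 held 1224 CPM or more, and no cell lay apart. Fst, follistatin, which binds activins, was counted in 7 cells, with a median of 0.540 and a highest value of 15.2 CPM in CPC7. The BMP-binding proteins Grem1, Nog and Chrd reached 19.2 CPM in CPC3, 6.06 CPM in CPC3 and 8.50 CPM in CPC6. Grem1 and Nog were counted in 4 cells each and Chrd in 10. Fstl1 made up a median of 99.2% of the 5 antagonists per kilobase, and 92.7% in CPC3, its lowest cell. This share covers the 5 listed genes only. Outside them, the secreted BMP-binding proteins Nbl1 and Bmper had means of 76.1 and 25.5 CPM per kilobase, against 170 for Fstl1.

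Smad transcripts were counted in nearly all cells. Smad4 (chr18:73639009-73703780), the shared partner, ran from 42.4 CPM in CPC11 through a median of 81.1 to 165 CPM in CPC9. Smad2 (chr18:76241580-76310963) ran from 46.7 CPM in CPC3 through a median of 75.9 to 131 CPM in CPC7. For both genes the cells filled the range with no cell apart. Smad3 was at 50.6 ± 34.3 CPM, Smad1 at 44.5 ± 14.4 CPM and Smad5 at 36.7 ± 18.9 CPM (SD, 12 cells). Smad9, the remaining BMP Smad, had no count in CPC10 and reached 33.1 CPM in CPC4. CPC3 held the lowest Smad2 and Smad5. Per kilobase, Smad2 and Smad3 together held a median of 54.4% of the receptor-regulated Smads, from 41.5% in CPC8 to 78.4% in CPC7.

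All 5 members that restrain the signal inside the cell were counted in every cell. Smad6 (chr9:63953076-64022059), which mainly restrains BMP signals, ran from 27.3 CPM in CPC9 through a median of 86.7 to 195 CPM in CPC7. Smad7 (chr18:75367529-75395935), which restrains both branches, ran from 27.9 CPM in CPC9 through a median of 93.8 to 168 CPM in CPC8. CPC9 was lowest in both. Smurf2 (chr11:106820066-106920715), a ubiquitin ligase for Smads and receptors, ran from 59.0 CPM in CPC7 through a median of 125 to 436 CPM in CPC5. Its relative Smurf1 was at 54.2 ± 23.1 CPM, and Skil, the SnoN co-repressor of Smads, at 68.9 ± 27.1 CPM (SD, 12 cells). Skil was lowest in CPC3, at 15.0 CPM. Smad6 held a median of 55.9% of Smad6 and Smad7 per kilobase, from 34.1% in CPC8 to 77.3% in CPC10.

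Id proteins bind basic helix-loop-helix factors and keep them off DNA, and their genes are classical BMP targets. Id3 (chr4:136143497-136145755) had the highest level of all 45 members, per kilobase as well as in CPM. It ran from 565 CPM in CPC10 through a median of 1705 to 4223 CPM in CPC11. CPC7 followed at 3164 CPM, and CPC10 alone lay under 1000 CPM. Id1 (chr2:152736251-152737410) ran from 35.9 CPM in CPC12 through a median of 176 to 343 CPM in CPC6. Id2 (chr12:25093799-25097140) ran from 71.7 CPM in CPC9 through a median of 235 to 622 CPM in CPC4. The highest and lowest cells thus differed among these 3 genes. Id4 was counted in 8 cells at no more than 2.39 CPM. Per kilobase Id3 led the Id genes in each of the 12 cells, with a median share of 81.4%, from 53.0% in CPC10 to 89.2% in CPC11.

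**Figure D3:**
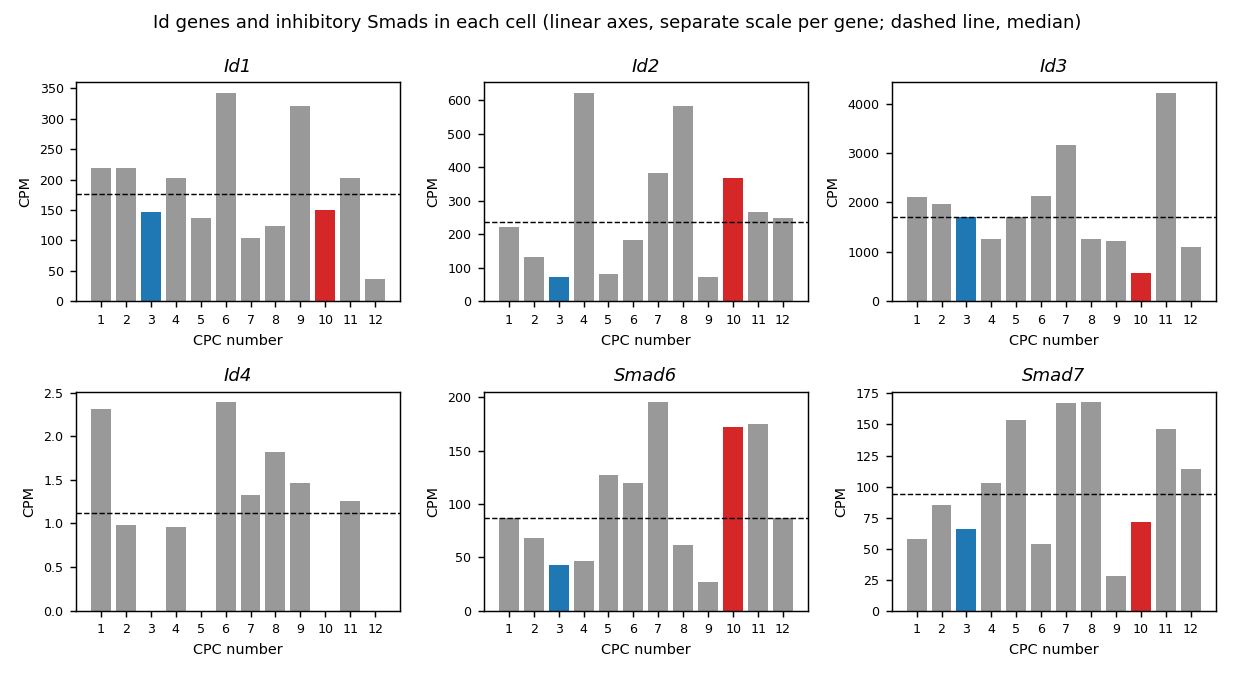
Bars give CPM in CPC1 to CPC12 on linear axes that differ between genes, with CPC3 in blue, CPC10 in red and the median as a dashed line. Id1 is high in CPC6 and CPC9, where Smad7 is low, whereas Id3 peaks in CPC11 and Smad6 in CPC7.

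To show what lies at the start of the most and the least abundant Id genes, of Id2 and of Smad6, Smad-related motifs were searched in RefSeq promoters (GRCm38.p6, the build of mm10), on both strands. The windows held 300 bases, from 250 before to 50 after the RefSeq start, and 32 of the 45 members had one. Id1 was not among these 32, so its promoter was not searched. The motifs were GGCGCC, a GC-rich BMP-response element, CAGAC, the short Smad box, which reads GTCTG on the opposite strand, and GTCTAGAC, the Smad palindrome, none of which holds another. Capitals mark the motifs, and sequences run 5′ to 3′ on the strand of the gene. Bases that GENCODE places in an Id2 or Id3 untranslated exon were left out, apart from 25 bases around each Id3 motif.

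Id3, chr4:136143645-136143669 (+): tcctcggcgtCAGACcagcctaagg
Id3, chr4:136143744-136143768 (+): acccttggcgGTCTGttttgaataa
Id2, chr12:25096254-25096342 (-): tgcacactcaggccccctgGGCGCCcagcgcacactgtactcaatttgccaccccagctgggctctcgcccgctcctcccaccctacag
Id4, chr13:48260866-48261115 (+): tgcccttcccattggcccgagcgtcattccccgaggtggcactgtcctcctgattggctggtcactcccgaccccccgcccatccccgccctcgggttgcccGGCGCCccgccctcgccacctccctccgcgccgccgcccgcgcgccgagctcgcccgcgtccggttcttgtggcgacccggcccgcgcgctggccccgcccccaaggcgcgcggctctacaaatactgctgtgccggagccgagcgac
Smad6, chr9:64022056-64022309 (-): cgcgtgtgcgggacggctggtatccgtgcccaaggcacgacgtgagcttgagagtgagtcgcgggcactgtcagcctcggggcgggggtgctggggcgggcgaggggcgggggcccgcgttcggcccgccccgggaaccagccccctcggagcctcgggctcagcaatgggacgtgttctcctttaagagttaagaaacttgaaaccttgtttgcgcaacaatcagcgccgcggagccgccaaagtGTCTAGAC

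The boxes of Id3 began 167 and 68 bases before the RefSeq start, which lies inside the longer first exon of GENCODE. GGCGCC began 231 bases before the start in Id2 and 148 bases before it in Id4. The RefSeq start of Id2, too, lies inside the longer GENCODE gene, so that the Id2 stretch is within the gene as GENCODE draws it. The weakly counted Id4 and the abundant Id2 both held this motif. The 32 members had 40 promoters among the 32851 in the table. GGCGCC occurred in 11.9% of all promoters and in 14 of these 40, from 12 genes, and CAGAC in 49.6% and in 18 of 40, from 16 genes. The palindrome spanned the start of Smad6 and occurred in 0.213% of promoters and in no other member. A search of the 250 bases before the start alone had found it in 0 of the 40 and in 0.167% of all promoters, and was widened to the full window after that. The TATA box sequence TATAAA, searched as well on both strands, was in 13.6% of promoters and in 3 of the 40, those of Bmpr1b, Inhba and Tgfb2. A match describes letters in a window and not a bound site.

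Latent TGF-beta binding proteins tether the inactive ligand to the matrix. Ltbp1 (chr17:75005568-75392512) ran from 29.3 CPM in CPC10 through a median of 156 to 351 CPM in CPC12. The cell with the least collagen had the least Ltbp1 and the cell with the most collagen had the most. Ltbp3 (chr19:5740904-5758532) ran from 20.5 CPM in CPC9 through a median of 86.1 to 192 CPM in CPC12. Ltbp2, a matrix relative, split the cells, with 102 and 109 CPM in CPC5 and CPC3, 0 in CPC10 and a median of 13.9 CPM. An antisense gene, D030025P21Rik, overlaps 9.34% of its exon length. Ltbp4 had no count in CPC10 and reached 93.3 CPM in CPC5. Per kilobase, Ltbp1 led this family in 9 cells, with a median share of 46.0%.

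Spread between cells was read for the 33 members with a mean of 5 CPM or more, a level that 44.8% of all genes reached. Of these, 4 had a highest cell at 3 times the next or more, against 3.74% of all such genes. They were Tgfb1, Bmp4 and Acvr1, highest in CPC10, and Bmp2, highest in CPC3. Bmp2 and Bmp4 reached a mean of 5 CPM through that cell alone, with 0.024 and 0.767 CPM without it, so the limit on level fixed their place in this count. Without CPC10 the number was 1, and without CPC3 and CPC10 it was 0. Against a running median over genes of like level, the dispersion residual, log10 of the squared coefficient of variation, had a median of 0.23 over 31 members and 0.00 over 9701 genes. It was above 0 in 21 of the 31, against 49.8% of all genes. Bmp6, among these 21, reached a mean of 5 CPM only with CPC10 included, at 4.47 CPM without it. The median residual of the members was 0.13 without CPC3 and CPC10, 0.15 without CPC10 alone and 0.12 without CPC5 alone. The plain coefficient of variation had a median of 0.562 for the members and 0.557 for the genes. Tgfb1 had the largest residual, at 1.17, and Inhba followed at 0.83. Without CPC10 Inhba had the largest, at 0.82, and Tgfb1 was at 0.43. Smad1 had the smallest over 12 cells, at -0.37, and Smad2 without CPC10, at -0.34.

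Departures in CPC10 went both ways. Of the 33 members, 6 were highest in CPC10 (Tgfb1, Bmp4, Bmp6, Tgfbr1, Acvr1 and Smurf1), against 12.3% of all genes at this level. Bmp4 and Bmp6 reached that level only with CPC10 included, at 0.767 and 4.47 CPM without it. CPC10 alone was lowest for 9 (Tgfb3, Inhba, Bmpr1a, Bmpr2, Smad9, Id3, Ltbp1, Ltbp2 and Ltbp4), against 16% of all genes. CPC3 was highest for 3 (Bmp2, Bmpr2 and Ltbp2), against 6.8%. Bmp2 reached a mean of 5 CPM only with CPC3 included, at 0.024 CPM without it. CPC5 and CPC7 were highest for 5 each, against 11.9% and 8.96%, and CPC12 for 4, against 8.41%. The part of the endothelial transcripts or of the low collagen level in these values was not tested.

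**Figure D4:**
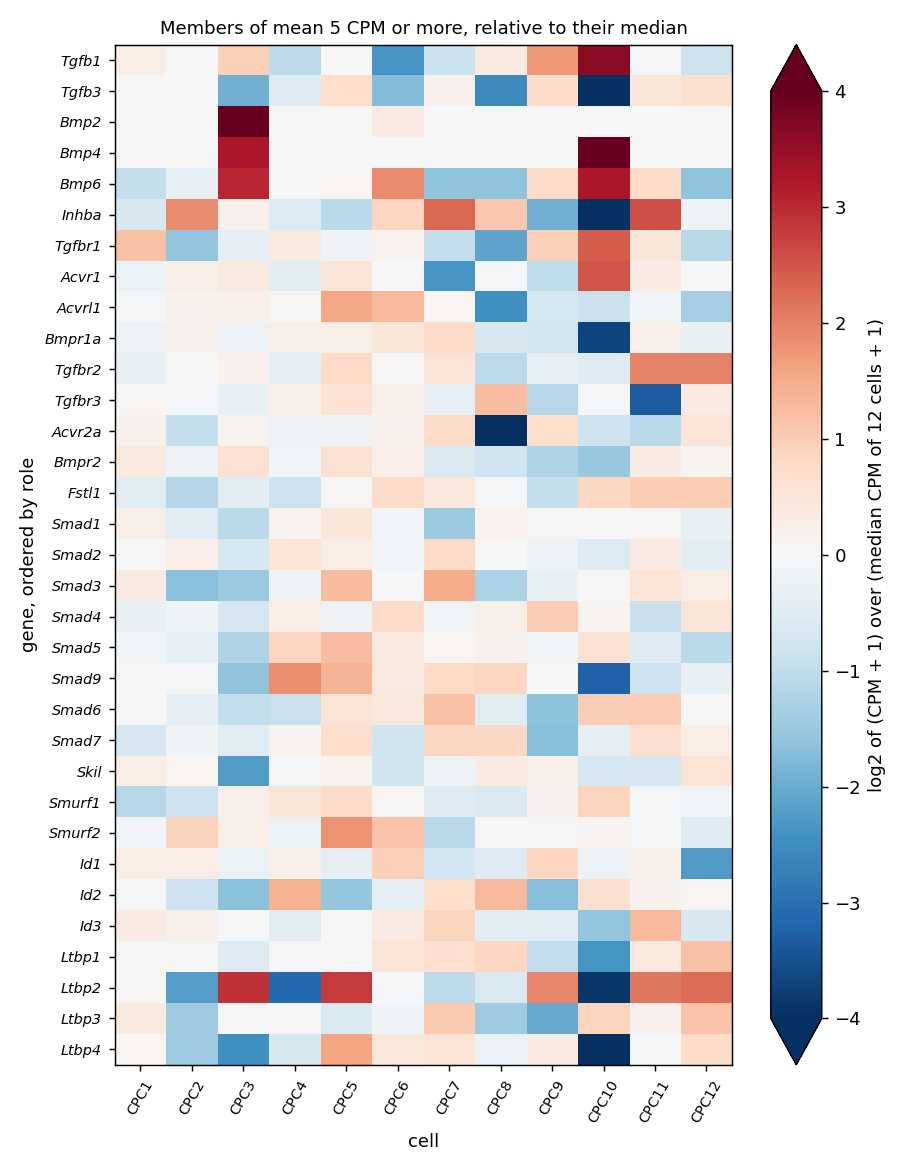
Colours give log2 of (CPM + 1) in a cell over (median CPM + 1) for the 33 members with a mean of 5 CPM or more, in order of role, with cells in columns; the scale is cut at 4 on either side. CPC10 departs in both directions, from Tgfb1 and Bmp4 above the median to Bmpr1a, Inhba and Ltbp4 below it.

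How members varied with each other was described by Spearman's rho of CPM over the 12 cells, which went through the same culture protocol and were sequenced in a pool. The Id genes showed no common course, with a rho of -0.39 for Id1 and Id2, 0.28 for Id1 and Id3 and -0.02 for Id2 and Id3, or 0.12 without CPC10. Id1 and Smad7 ran in opposite directions, at -0.78, and at -0.81 without CPC10. Id3 and Smad6 were at 0.45, and at 0.69 without CPC10. Smad3 and Smad6 were at 0.80, Tgfb1 and Bmpr1a at -0.85, and Smad5 and Smad9 at 0.65, or 0.95 without CPC10. These last 3 pairs were picked out after the values of all pairs had been seen. Of 528 pairs of members, 7 (1.33%) were at 0.7 or more, beside 1.22% of all pairs of genes at this level, and 4 (0.758%) at -0.7 or less, beside 0.761%. Without CPC10 these numbers were 7 and 2 (0.379%), beside 1.65% and 1.14% of all pairs of genes, and Bmp2 with Bmp4, 1 of those 7, rests on CPC3, then the only cell with a Bmp4 count. Of the first 7 pairs 2, Smad3 with Smad6 and Bmpr1a with Smad2, were still at 0.7 or more.

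Partners in function were compared in the same way. Tgfbr1 and Tgfbr2, the receptor pair of TGF-beta, were at -0.22, or -0.09 without CPC10, and Bmpr1a and Bmpr2 at 0.40, or 0.22 without CPC10. Inhba and its binding protein Fst were at 0.38, or 0.28 without CPC10. None of these 3 pairs came to 0.7. Of the 33 members, 1 had a rho of 0.7 or more with the collagen sum, which was Ltbp1 at 0.89, or 0.85 without CPC10, against 1.2% and 1.53% of all genes. No member was at -0.7 or less, against 0.843% of genes with 12 cells and 1.63% without CPC10. With the sum of 10 G2/M genes no member reached 0.7 or -0.7, where 5.33% and 1.11% of all genes did, and the same held without CPC10, against 6.3% and 2% of genes.

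**Figure D5:**
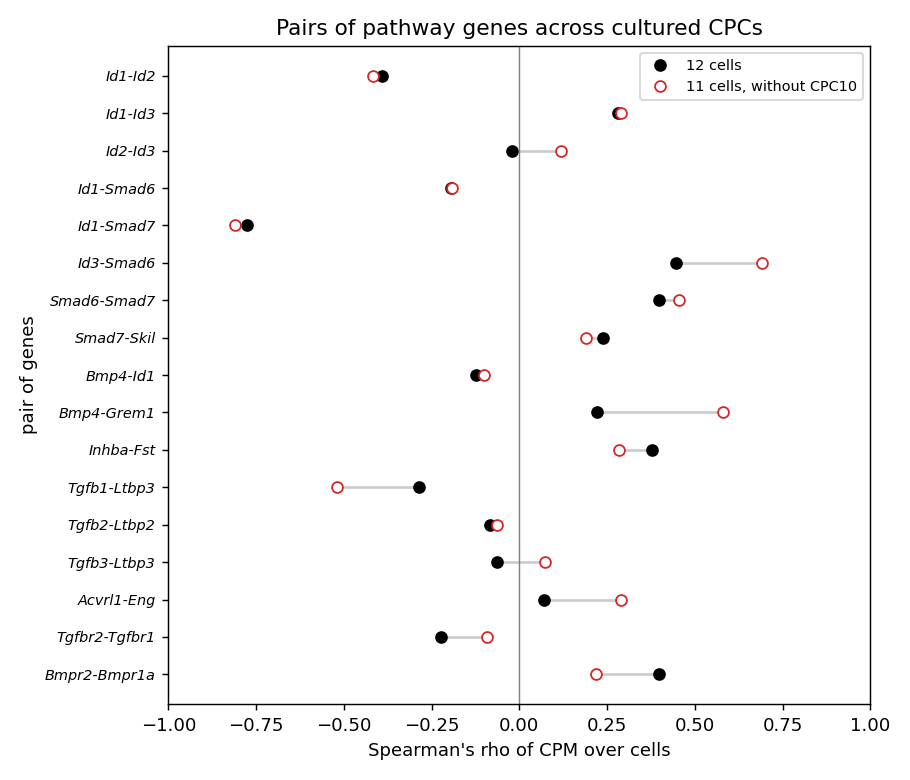
Points give Spearman's rho of CPM for 17 chosen pairs of pathway genes, filled for 12 cells and open for 11 cells without CPC10. Id1 and Smad7 lie at -0.78 and -0.81, Id3 and Smad6 at 0.45 and 0.69, and Bmp4, in a pair with Id1 and another with Grem1, was counted in only 2 cells.

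Another 67 genes of the pathway, listed by role, placed the members in context. Of 22 other ligands 12 had no count in any cell, Gdf15, a stress-induced ligand, had a mean of 222 CPM, and Bmp1, a procollagen protease despite its name, had a mean of 132 CPM. Gdf15 reached 1194 CPM in CPC1, without which its mean was 134 CPM, and was at 0 in CPC10. Among 7 other receptors and co-receptors, Eng, endoglin, had a mean of 269 CPM and Bambi, a decoy receptor, 30.7 CPM. Eng stood at 1911 CPM in CPC10 and at no more than 349 CPM elsewhere, and its mean without CPC10 was 119 CPM. Of 12 other secreted modulators 6 had no count, and Nbl1 and Bmper, both BMP-binding proteins, had means of 155 and 123 CPM. Among 8 Smad partners, 6 were counted in each cell, among them the co-repressor Tgif1 at 178 CPM and the phosphatase Ppm1a at 76.1 CPM.

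Thbs1, thrombospondin, which activates latent TGF-beta, had a mean of 845 CPM and 4668 CPM in CPC7, without which the mean was 497 CPM. Itgb5, a subunit of an integrin that also binds the latent complex, had a mean of 294 CPM. All 8 genes that act on latent TGF-beta were counted in at least 1 cell and 4 in each cell, and Itgb8 was counted in 2 and Itgb6 in 6 cells. Of 10 induced transcripts 8 were counted in each cell and 9 had a mean of 10 CPM or more. Ctgf, a matrix-associated target, had a mean of 1138 CPM, with 5722 CPM in CPC8 and 2.82 CPM in CPC10, and a mean of 721 CPM without CPC8. Fn1, fibronectin, was at a mean of 857 CPM, with 3830 CPM in CPC10. Its mean without CPC10 was 587 CPM. These 2 targets thus had opposite extremes in CPC10.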

How the data were processed

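Poly(A) RNA of 12 single cells was copied with the Smart-Seq v4 kit and made into Nextera XT libraries, sequenced as paired reads of 75 bases. The authors mapped the reads to mm10 with STAR 2.5.2b and kept uniquely mapped reads, and the deposited table holds raw counts of reads for each gene in each cell, not normalized. The counting program, annotation and strand rule are not given in the sources used here.

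CPM was the count divided by the total of the cell, times 1000000. Shares and leading genes within families were taken per kilobase of merged exons (GENCODE vM21, which names all 45 members). Sums over genes, level thresholds and comparisons with all genes were in plain CPM. The study's filter of 1000 genes and 10% mitochondrial counts removed 0 cells. Libraries differed beyond sampling noise (chi-square per degree of freedom at least 48.5 over 66 pairs), and doublets were not called among hand-picked cells. The dispersion residual used a running median of 201 genes, with counts in at least 3 cells, and was tested on simulated data. Poisson intervals were exact, at 95%. No test was possible with 1 group.

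Members and lists were chosen with earlier results of these data known. All members were named. Ranges were given for the 2 highest per role by mean reads per kilobase, for members whose highest cell was 3 times the next, for Bmp7, for Id1 to Id3 and for Smad6 and Smad7, and Bmp6, Smad1, Ltbp2 and others were added after their values were seen. The 2 highest by mean CPM were named in each other pathway list, and plain CPM does not order these genes by level per length. A further gene of these lists is not reported here. Alternatives changed the threshold, scale, exon length or depth, or dropped 1 cell at a time. Work was done in Python 3.11.15 with pandas 2.3.3 and numpy 2.4.6, intervals came from scipy 1.17.1, and plots from matplotlib 3.10.9.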

Additional observations from a re-analysis of the deposited data

How the results depend on the processing

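Of 32 values under other thresholds, scales, exon lengths or depth, 29 stayed within the spread (1 SD over cells, a jackknife error, a nominal exact binomial interval, which takes values of 1 gene or cell as independent, or a factor of 1.5) and 3 did not. The share of member values with a count was 77.6% at 5 counts or more and 77.2% at 1 CPM or more, since a stricter limit takes in fewer values. The number of members whose highest cell was far above the next was 2 at a fold of 5, in place of 4 at a fold of 3. With 1 cell dropped at a time there were 119 values, of which 1 was beyond the spread: that number was 1 without CPC10, and ran from 1 to 4. Leaving out CPC3 and CPC10 together, added after seeing the data, gave 9 values, with 1 beyond the spread, where it was 0. The members highest in CPC10 could not be counted without CPC10. For the median residual and the Id correlations, the jackknife error came from the same values with 1 cell dropped. For the family shares and the median level, the spread was the SD over single cells. Lying within such a spread therefore does not show stability. The median residual went from 0.23 to 0.12 without CPC5 and still lay within it. No paired analysis was possible because the 12 cells form 1 group. Depth limits genes near 3 counts per cell, and 12 cells of 1 group limit every statement on spread.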
